A study of Mus musculus with 12 samples.

Results

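The 48 genes described here encode ribosome biogenesis factors, the nucleolar and nuclear proteins that make ribosomal RNA and build ribosomal subunits but are not part of the finished ribosome. They were chosen by gene symbol and not by their measured values, but earlier results of these data were known. All 48 were present among the 55401 genes of the count table. Each of the 48 also passed the filter on low counts that left 25771 genes for testing. By role they are 2 subunits of RNA polymerase I, 6 nucleolar scaffold or regulatory proteins, 4 proteins of box C/D small nucleolar ribonucleoproteins (snoRNPs), 4 proteins of box H/ACA snoRNPs, 9 components of the small subunit (SSU) processome, 6 late 40S factors and 17 assembly factors of the 60S subunit.

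The study asked what the chemokine receptor CXCR4 does in satellite cells, the resident stem cells of skeletal muscle, and measured mRNA in Pax7-ZsGreen+ cells sorted from the hind limbs of mice. Every mouse carried homozygous floxed *Cxcr4* (CXCR4 FL/FL) and the Pax7-ZsGreen reporter, and every mouse received 80 mg/kg tamoxifen by intraperitoneal injection on 5 consecutive days. The *Cxcr4* KO mice also carried Pax7-creERT2, whereas the *Cxcr4* WT mice lacked cre, so that recombination was restricted to cells that express *Pax7*. Freshly sorted cells are called quiescent (4 WT and 4 KO libraries) and cells kept overnight in culture are called activated (2 WT and 2 KO libraries). The paper places an early step of activation in the isolation itself, since nearly every freshly sorted cell of both genotypes stained for MYOD1 protein. Quiescent therefore names the freshly sorted cells and not cells left in the muscle. Per the study's methods the mice were adults of 3 to 4 months. The sex of these mice is not given in the sources used here. The methods count samples as independent mice in general, whereas the labels do not say for these libraries whether each replicate was a separate animal, and p-values measure the spread between the libraries.

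Ribosome production starts in the nucleolus, where RNA polymerase I transcribes the long precursor of most ribosomal RNAs. Box C/D snoRNPs methylate this precursor and box H/ACA snoRNPs convert selected uridines to pseudouridine, while the SSU processome and the 60S assembly factors fold, cut and export the small and large subunits. Quiescent satellite cells are small cells with little cytoplasm, and they enlarge as they leave quiescence and prepare to divide.

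Depth was between 12775593 and 23717013 counts per quiescent library and between 3172164 and 5427280 counts per activated library. *Cxcr4* itself had 80.5 ± 25.3 CPM (counts per unit of sequencing depth, scaled by TMM; mean ± SD, n = 4) in quiescent WT and 17.1 ± 3.54 CPM (n = 4) in quiescent KO libraries, and 23.9 ± 13.3 against 9.54 ± 5.86 CPM (n = 2 each) in activated libraries. A count per gene does not separate the deleted exon from the rest of the gene. Each of 9 satellite cell markers was counted in at least 1 library of every group. So were all markers in the endothelial, fibroadipogenic progenitor, smooth muscle or pericyte and mature fibre lists given below. *Calcr*, 1 of the 9, was at 0 CPM in 1 activated KO library. *Pax7* had 392 ± 85.0 CPM (n = 4) in quiescent and 109 ± 2.69 CPM (n = 2) in activated WT libraries. In KO libraries it had 247 ± 49.7 CPM (n = 4) and 100 ± 41.2 CPM (n = 2). Every quiescent KO library (181 to 290 CPM) was below every quiescent WT library (303 to 482 CPM) for *Pax7*. None of the 9 markers passed between genotypes in either state (edgeR, adjusted p under 0.05). *Myod1* mRNA was at 1784 ± 1148 CPM (n = 4) in quiescent and 1517 ± 328 CPM (n = 2) in activated WT libraries. The KO libraries had 1942 ± 925 CPM (n = 4) and 1573 ± 443 CPM (n = 2) of it. Reads on CT010467.1, a ribosomal RNA sequence, made up 0.295% to 0.807% of the counts in quiescent libraries, 12.6% and 40.3% of the activated WT libraries, and 11.5% and 28.8% of the activated KO libraries. In activated libraries the least abundant of the 48 genes still had 71 counts.

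Overnight culture was accompanied by higher mRNA levels of most ribosome biogenesis factors in both genotypes. In WT libraries 31 of the 48 rose, 1 fell and 16 did not pass the test (edgeR's quasi-likelihood test, adjusted p under 0.05), where 11.5% of all genes tested rose and 18.3% fell. In KO libraries 32 rose, 1 fell and 15 did not pass, against 13.3% and 20.4% of all genes. The median log2 fold change over the 48 was 1.19 in WT, with a range from -0.98 to 3.01, and 1.16 in KO, with a range from -0.83 to 3.05. Over all genes tested the medians were -0.92 (WT) and -0.96 (KO), so that the medians of the factors lay 2.11 and 2.12 above those of all genes on the log2 scale. Among genes whose mean count reached 10 or more, the medians of all genes were -0.46 and -0.49 and those of the factors 1.28 and 1.24. Scaling to total counts lowered the median of all genes by 0.11 in both genotypes, and there 30 factors rose in WT and 32 in KO.

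Requiring also a log2 fold change over 1 and a mean count over 10, as the study did, left 30 factors that rose in WT, where 9.62% of all genes did, and 28 in KO, where 11.1% did. For 29 of the 48 factors all 4 activated libraries lay above all 8 quiescent libraries, an order that 12.2% of all genes tested showed. *Nop58* alone had all activated libraries below all quiescent libraries. The same direction passed in both genotypes for 29 factors that rose and 1 that fell. *Nolc1* and *Nob1* passed in WT and not in KO, and *Rrp9*, *Gar1* and *Nle1* passed in KO and not in WT, but the test of the difference between genotypes gave an adjusted p of at least 0.978 for each of the 48.

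The KO count depended on which libraries were included. Without KO quiescent replicate 2 or 3, 27 and 26 factors rose in KO, and without KO quiescent replicate 1 or 4, 31 and 37 did. The order of the 4 activated libraries, given here for the 48 factors, was not counted over all genes. Without KO activated replicate 1, which had the highest level of the 4 activated libraries for 38 of the 48 factors, 16 rose in KO and none fell. Without KO activated replicate 2, 28 rose. With both second activated replicates left out, the libraries with the most CT010467.1 counts, 23 rose in WT and 28 in KO. Other sequences moved strongly with culture as well: the summed level of 8 mature fibre markers was 239 to 856 CPM in quiescent and 6158 to 15243 CPM in activated libraries, that of the 9 satellite cell markers went from between 3329 and 5347 to between 1125 and 1673 CPM, and that of 6 smooth muscle or pericyte markers from between 1500.0 and 2713 to between 169 and 388 CPM. Endothelial markers (7 genes) summed to between 233 and 1026 CPM before and between 99.0 and 704 CPM after culture, fibroadipogenic progenitor markers (6 genes) to between 237 and 1470.2 and between 173 and 329 CPM, and blood cell markers (8 genes) to between 97.5 and 517 and between 61.3 and 84.9 CPM. The members of these lists did not all follow the sums. Of the endothelial markers 2 fell in WT and 1 in KO, and of the blood cell markers 4 and 6. Of the fibroadipogenic progenitor markers 2 fell in each genotype and 1 rose in KO, with median log2 fold changes of 0.12 in WT and 0.31 in KO. The part of these markers in the changes of the biogenesis factors was not tested, and state cannot be told apart from depth. In bulk RNA, a change in the share of cells of a type and a change in mRNA per cell cannot be told apart.

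**Figure D1:**
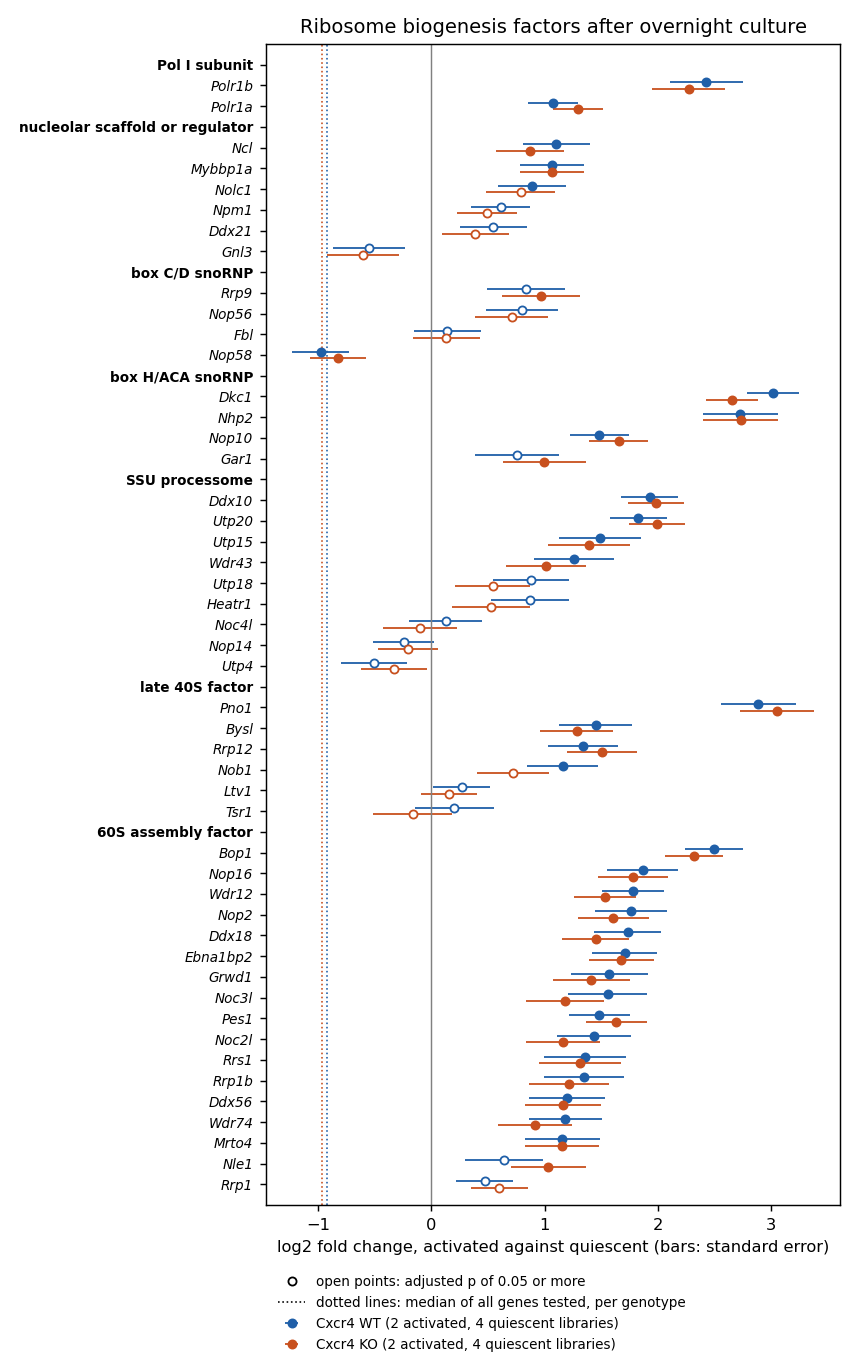
Log2 fold change of each of the 48 factors in activated against quiescent libraries, by role, in *Cxcr4* WT (blue) and *Cxcr4* KO (orange). Bars are standard errors, filled points passed at an adjusted p under 0.05, open points did not, and dotted lines are the medians of all genes tested (-0.92 in WT and -0.96 in KO). Most points lie to the right of 0, with *Dkc1*, *Pno1* and *Nhp2* farthest right and *Nop58* on the left at -0.98 in WT.

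Promoter sequences from RefSeq (GRCm38.p6, 250 bases before to 50 bases after the start site) were matched to 43 of the 48 genes. *Bop1*, *Fbl*, *Npm1*, *Rrp12* and *Rrs1* had no entry. The letters CACGTG, the canonical E-box that MYC and related helix-loop-helix proteins can bind, read the same on both strands and occurred in 12 of the 43 promoters (27.9%), against 8.09% of 27025 genes with a promoter entry. In 10 of these 12 they lay after the start site. The motif CCGGAAG, searched on both strands, the core recognised by ETS family factors, was in 15 of the 43 (34.9%, against 9.93% of all genes), and TATAAA, on both strands, was in 2 (4.65%, against 15.7%). The shares of all genes were taken over every gene with a promoter entry and not over the genes tested here, and the differences were not tested. The stretches around the E-box are shown for the 6 holders with the highest log2 fold change in WT, since these 6 all rose after culture in both genotypes. They are written 5′ to 3′ on the strand of the gene, with the E-box in capitals.
Pno1: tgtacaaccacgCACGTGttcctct
Utp20: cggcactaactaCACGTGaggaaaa
Nop2: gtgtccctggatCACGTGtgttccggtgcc
Grwd1: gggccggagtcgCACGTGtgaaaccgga
Pes1: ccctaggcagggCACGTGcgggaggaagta
Wdr43: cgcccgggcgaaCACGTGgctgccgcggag
In GRCm38.p6 these stretches lie at chr11:17211540-17211564 (minus strand), chr10:88826765-88826789 (minus strand), chr6:125131811-125131840 (plus strand), chr7:45830740-45830767 (minus strand), chr11:3963965-3963994 (plus strand) and chr17:71616220-71616249 (plus strand). The first base of the E-box was at position 38 in *Pno1* and *Utp20*, 35 in *Grwd1*, 18 in *Wdr43* and 3 in *Pes1*, counted from 1 at the start site, and 60 bases before the start site in *Nop2*. Holding the motif did not go with a larger change among the 43. Of the 12 with the motif 7 rose in WT, with a median log2 fold change of 1.16, and of the 31 without it 21 rose, with a median of 1.18. *Utp4*, *Utp18*, *Tsr1* and *Ltv1* held it and passed in neither genotype.

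Both RNA polymerase I subunits rose. *Polr1b* (ENSMUSG00000027395, chr2:129100995-129126594) encodes the second largest subunit, part of the catalytic centre. It had 18.3, 14.6, 26.4 and 34.4 CPM in the WT and 28.0, 27.3, 16.9 and 38.6 CPM in the KO quiescent libraries, and 127 and 126 CPM in the WT and 159 and 109 CPM in the KO activated libraries. All activated libraries lay above all quiescent ones, with a log2 fold change of 2.43 in WT (standard error 0.32, adjusted p = 1.18e-05, edgeR's quasi-likelihood test) and 2.27 in KO (adjusted p = 2.06e-05). *Polr1a* (ENSMUSG00000049553, chr6:71909053-71984935), the largest subunit, had 44.5, 35.3, 40.8 and 38.4 CPM in the WT and 38.8, 38.4, 40.0 and 48.02 CPM in the KO quiescent libraries, and 78.6 and 88.9 CPM in the WT and 104 and 98.8 CPM in the KO activated libraries. The groups did not overlap here either, but the change was smaller, 2.10-fold in WT and 2.45-fold in KO (adjusted p = 0.00104 and 1.44e-04, edgeR). *Polr1a* also had the steadiest level of the 48 factors among the 8 quiescent libraries, the highest being 1.36 times the lowest. Per kilobase of exon the subunits were at 3.35 ± 0.327 (*Polr1a*) and 4.04 ± 1.52 CPM per kb (*Polr1b*; mean ± SD, n = 4) in quiescent WT libraries and at 7.05 ± 0.614 and 21.8 ± 0.174 CPM per kb (n = 2) in activated WT libraries, with the exons of all annotated transcripts of a gene taken as its length.

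Among the nucleolar scaffold and regulatory proteins 3 of 6 rose in WT and 2 of 6 in KO. *Ncl* (ENSMUSG00000026234, chr1:86344719-86359400) encodes nucleolin, an abundant RNA-binding protein of the nucleolus, and was the most highly counted of the 48. It had 725, 677, 944 and 1210.2 CPM in the WT and 1023, 836, 761 and 1317 CPM in the KO quiescent libraries, and 1804 and 2013 CPM in the WT and 2245 and 1356 CPM in the KO activated libraries. Every activated library was above every quiescent one, by 2.15-fold on average in WT (log2 fold change 1.102, standard error 0.30, adjusted p = 0.00820, edgeR) and 1.83-fold in KO (adjusted p = 0.0301). The KO call was lost without KO activated replicate 1 (adjusted p = 0.472, log2 fold change 0.46) and without KO quiescent replicate 2 or 3, and the WT call without WT activated replicate 2 (adjusted p = 0.0541). *Mybbp1a*, a nucleolar regulator of transcription, rose by 1.06 in WT and 1.06 in KO on the log2 scale, and *Nolc1*, a chaperone of snoRNPs, had log2 fold changes of 0.89 (adjusted p = 0.0331, edgeR) and 0.79 (adjusted p = 0.0515).

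*Ddx21* (ENSMUSG00000020075, chr10:62580251-62602281), an RNA helicase of the nucleolus, did not pass in either genotype. Its levels were 302, 267, 441 and 526 CPM in the WT and 397, 328, 351 and 552 CPM in the KO quiescent libraries, and 572 and 549.5 CPM in the WT and 635 and 430.0 CPM in the KO activated libraries. The activated libraries overlapped the upper quiescent ones, and the log2 fold changes were 0.55 (standard error 0.30) and 0.39 (standard error 0.30). *Npm1*, which encodes the nucleolar chaperone nucleophosmin, had log2 fold changes of 0.61 and 0.49 and did not pass (adjusted p = 0.0857 and 0.151, edgeR). Processed pseudogenes at least 95% identical to *Npm1* held 6.27% of their joint counts, so reads could be counted on either. *Gnl3*, which encodes the GTPase nucleostemin, had values of -0.55 and -0.60, the lowest of these 6, and did not pass.

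The genes for box C/D and box H/ACA snoRNP proteins, which modify ribosomal RNA, gave unlike counts, and the difference between these lists was not tested. None of the 4 box C/D genes rose in WT and 1 rose in KO, while 3 of the 4 box H/ACA genes rose in WT and all 4 in KO. The median log2 fold changes were 0.47 in WT and 0.42 in KO for box C/D and 2.10 and 2.15 for box H/ACA.

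*Nop58* (ENSMUSG00000026020, chr1:59684971-59719044), a scaffold protein of the box C/D particle, was the factor that fell. It had 186, 183, 239 and 231 CPM in the WT and 294, 235, 191 and 248 CPM in the KO quiescent libraries, and 107 and 106 CPM in the WT and 145 and 128 CPM in the KO activated libraries. Each activated library was below each quiescent library, at 0.508 times the quiescent level in WT (log2 fold change -0.98, standard error 0.25, adjusted p = 0.00614, edgeR) and 0.564 times in KO (log2 fold change -0.83, adjusted p = 0.0155). Leaving out any activated library of the same genotype kept the direction and lost the call, with adjusted p-values of 0.0854 and 0.0884 in WT and 0.0904 and 0.184 in KO. In WT its fold change was close to the median of all genes tested, -0.92.

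*Nop56* (ENSMUSG00000027405, chr2:130274430-130279313), which pairs with *Nop58* in the same particle, had 206, 184, 342 and 401 CPM in the WT and 345, 232, 244 and 449 CPM in the KO quiescent libraries, and 496 and 490.4 CPM in the WT and 599 and 438 CPM in the KO activated libraries. Activated libraries were above the WT quiescent ones, and 1 KO activated library lay below the highest KO quiescent library. The log2 fold changes were 0.80 in WT (adjusted p = 0.0664, edgeR) and 0.71 in KO (adjusted p = 0.0945), and the WT value passed with DESeq2 (adjusted p = 0.0258). *Rrp9*, a protein specific to the U3 particle, had 0.83 in WT (adjusted p = 0.0763, edgeR) and rose by 0.97 in KO (adjusted p = 0.0369). *Fbl*, which encodes the methyltransferase fibrillarin, stayed within its spread, with log2 fold changes of 0.14 (standard error 0.30) and 0.13 (standard error 0.30). A transcript of *Tulp4* is 99.6% identical to *Fbl* over 690 bases, so reads could be counted on either gene and the value for *Fbl* is uncertain.

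*Dkc1* (ENSMUSG00000031403, chrX:75095854-75109777) encodes dyskerin, the pseudouridine synthase of the box H/ACA particle, and changed most of all 48 in WT. It had 23.9, 24.6, 26.5 and 29.7 CPM in the WT and 35.7, 30.1, 30.3 and 38.2 CPM in the KO quiescent libraries, and 183 and 241 CPM in the WT and 238 and 185 CPM in the KO activated libraries. The activated libraries lay far above the narrow quiescent range, with 8.08-fold higher levels in WT (log2 fold change 3.01, standard error 0.23, adjusted p = 3.43e-08, edgeR) and 6.29-fold in KO (log2 fold change 2.65, adjusted p = 7.58e-08).

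*Nhp2* (ENSMUSG00000001056, chr11:51619735-51623714), an RNA-binding subunit of the same particle, had 21.3, 25.9, 37.3 and 52.5 CPM in the WT and 45.6, 24.05, 34.7 and 49.4 CPM in the KO quiescent libraries, and 209.6 and 244 CPM in the WT and 317 and 193 CPM in the KO activated libraries. Again no activated library overlapped a quiescent one, and the log2 fold changes were 2.72 in WT and 2.73 in KO (standard error 0.33 each, adjusted p = 4.12e-06 and 3.57e-06, edgeR). *Nop10*, the smallest subunit, rose by 1.48 and 1.65 on the log2 scale. *Gar1*, the remaining core protein, had 0.76 in WT (adjusted p = 0.130, edgeR) and rose by 1.00 in KO (adjusted p = 0.0430).

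Measured per kilobase of exon, *Dkc1* was the lowest of the 4 box H/ACA genes in quiescent WT libraries, at 6.35 ± 0.628 CPM per kb (mean ± SD, n = 4), against 28.2 ± 12.4 for *Gar1*, 29.9 ± 12.1 for *Nhp2* and 41.2 ± 8.82 for *Nop10*. In activated WT libraries it was at 51.4 ± 9.98 CPM per kb (n = 2), against 47.8 ± 2.18 for *Gar1*, 115 ± 14.5 for *Nop10* and 198 ± 21.2 for *Nhp2*. Per kilobase the levels of *Dkc1* and *Gar1* did not differ beyond their spread after culture. In CPM they did, at 212 ± 41.1 for *Dkc1* and 81.9 ± 3.73 for *Gar1* (n = 2), with exon lengths of 4.121 and 1.714 kb. For the box C/D genes *Nop58* was at 19.5 ± 2.698, *Fbl* at 16.9 ± 4.45 and *Nop56* at 69.2 ± 25.6 CPM per kb before culture, and *Nop58* at 9.89 ± 0.119, *Fbl* at 18.7 ± 1.77 and *Nop56* at 120.3 ± 0.959 CPM per kb after it. Per kilobase *Nop58* and *Fbl* overlapped before culture, and *Nop58* was the lowest of these 3 after it. This order depends on the exon lengths used, 10.758 kb for *Nop58* and 4.209 kb for *Fbl*. In CPM *Nop58* was above *Fbl* in WT libraries, at 210 ± 29.0 against 71.3 ± 18.7 before culture (n = 4). After culture it was at 106 ± 1.27 against 78.8 ± 7.47 (n = 2).

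**Figure D2:**
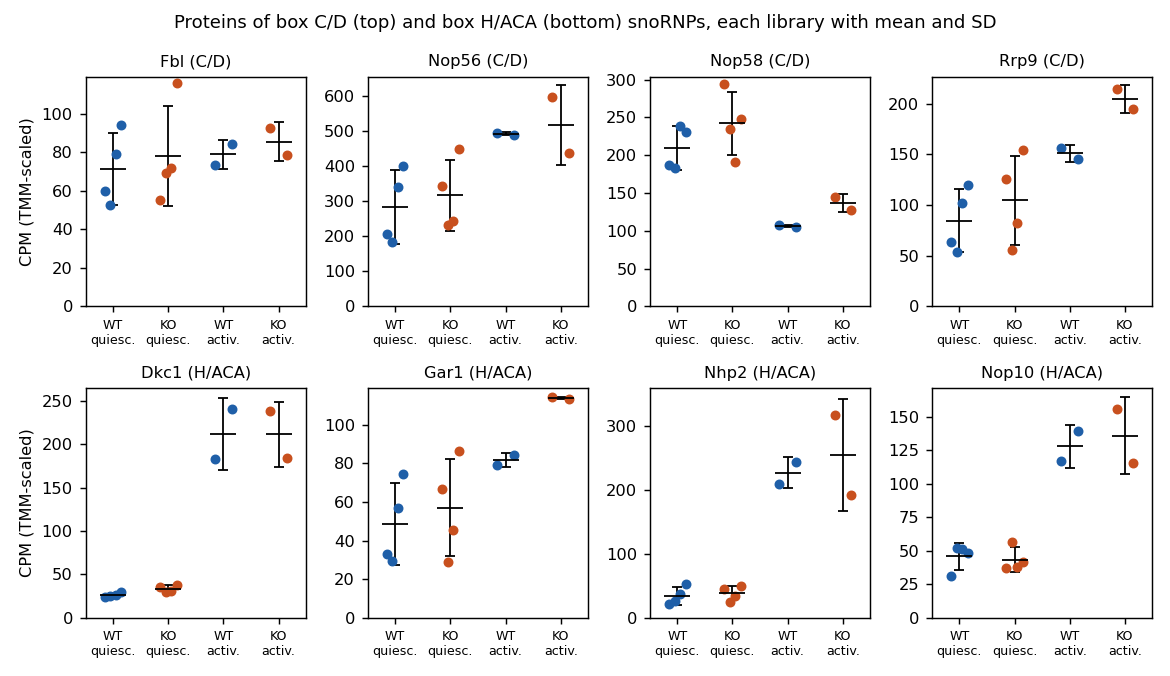
TMM-scaled CPM of 4 box C/D (top) and 4 box H/ACA (bottom) snoRNP protein genes in each library, with the mean and SD of each group. *Dkc1*, *Nhp2* and *Nop10* were higher in all 4 activated libraries than in any quiescent library, *Nop58* was lower in all 4, and *Fbl* overlapped.

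Some of these genes carry snoRNA genes within them: 7 of the 48 (*Ncl*, *Gnl3*, *Nop56*, *Nop58*, *Dkc1*, *Wdr43* and *Tsr1*) host 21 annotated snoRNA genes on the same strand, of which 10 share bases with annotated exons of the host. Of the 7 hosts 3 rose in each genotype, with median log2 fold changes of 0.80 in WT and 0.71 in KO, and of the other 41 factors 28 rose in WT and 29 in KO, with medians of 1.34 and 1.18.

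In the SSU processome, the large particle that forms on the precursor of the small subunit, 4 of 9 genes rose in both genotypes. *Ddx10* (ENSMUSG00000053289, chr9:53098635-53248053), an RNA helicase, had 10.9, 14.7, 13.0 and 14.4 CPM in the WT and 11.5, 14.4, 14.3 and 16.9 CPM in the KO quiescent libraries, and 52.8 and 47.7 CPM in the WT and 61.1 and 51.6 CPM in the KO activated libraries. Activated libraries were all above quiescent ones, and the level was 3.80-fold higher in WT (log2 fold change 1.93, standard error 0.25, adjusted p = 8.55e-06, edgeR) and 3.94-fold in KO (adjusted p = 5.08e-06). *Utp20* rose by 1.83 and 1.99 on the log2 scale and *Utp15* by 1.49 and 1.39.

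*Wdr43* (ENSMUSG00000041057, chr17:71615895-71659031), a component of the UTP-A subcomplex that first joins the precursor, had 52.6, 63.3, 119 and 130.1 CPM in the WT and 128, 80.7, 94.7 and 197 CPM in the KO quiescent libraries, and 214 and 222 CPM in the WT and 278 and 224 CPM in the KO activated libraries. The activated libraries were above all quiescent ones, while the quiescent libraries themselves ranged 3.74-fold. Its log2 fold change was 1.26 in WT (standard error 0.35, adjusted p = 0.0109, edgeR) and 1.01 in KO (adjusted p = 0.0338), and the KO call was lost without either KO activated replicate (adjusted p = 0.224 and 0.0585) and without KO quiescent replicate 2 or 3.

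*Nop14* (ENSMUSG00000036693, chr5:34638536-34660148) and its partner *Noc4l* were among the genes without a change beyond their spread. *Nop14* had 48.03, 53.8, 66.7 and 76.9 CPM in the WT and 56.3, 54.4, 53.8 and 78.1 CPM in the KO quiescent libraries, and 57.5 and 45.5 CPM in the WT and 57.8 and 47.5 CPM in the KO activated libraries. The states overlapped, and the log2 fold changes were -0.25 (standard error 0.27) and -0.21 (standard error 0.27). *Noc4l* had 0.12 and -0.10. *Utp18* and *Heatr1* had values of 0.88 and 0.87 in WT and 0.54 and 0.53 in KO, and *Utp4* had -0.51 and -0.33. None of the last 3 passed, with adjusted p-values of 0.0526, 0.0626 and 0.189 in WT (edgeR).

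Of the 6 late 40S factors, which act on the small subunit before and after its export, 4 rose in WT and 3 in KO. *Pno1* (ENSMUSG00000020116, chr11:17203198-17211568), an RNA-binding protein that holds the end of the small subunit RNA until its last cut, had 6.94, 8.37, 13.5 and 15.3 CPM in the WT and 17.7, 11.4, 8.31 and 18.4 CPM in the KO quiescent libraries, and 89.9 and 73.1 CPM in the WT and 121 and 110.0 CPM in the KO activated libraries. Every activated library was above every quiescent library, with 7.38-fold higher levels in WT (log2 fold change 2.88, standard error 0.33, adjusted p = 2.21e-06, edgeR) and 8.29-fold in KO (log2 fold change 3.05, adjusted p = 9.83e-07), the largest change of the 48 in KO. Its promoter is among those printed above.

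*Nob1* (ENSMUSG00000003848, chr8:107412486-107425051), the endonuclease that makes this last cut, had 48.4, 42.5, 81.9 and 85.5 CPM in the WT and 69.0, 47.6, 62.7 and 99.5 CPM in the KO quiescent libraries, and 134 and 155 CPM in the WT and 138 and 91.7 CPM in the KO activated libraries. The WT groups were separate, while KO activated replicate 2 lay below KO quiescent replicate 4. It rose by 1.16 on the log2 scale in WT (standard error 0.31, adjusted p = 0.00879, edgeR) and had 0.72 in KO (adjusted p = 0.0861), and the WT call was lost without WT activated replicate 2 (adjusted p = 0.0535). *Rrp12* (ENSMUSG00000035049, chr19:41862851-41896173), a factor in the export of subunits, had 21.7, 24.3, 42.0 and 46.9 CPM in the WT and 35.0, 34.4, 29.3 and 53.3 CPM in the KO quiescent libraries, and 79.1 and 92.0 CPM in the WT and 121 and 94.0 CPM in the KO activated libraries. Here the states were again separate in all libraries, with log2 fold changes of 1.34 and 1.503 (adjusted p = 0.00272 and 8.36e-04, edgeR). *Bysl*, which encodes bystin, rose by 1.45 and 1.28. *Tsr1* and *Ltv1*, which help to mature the subunit in the cytoplasm, had log2 fold changes of 0.20 and 0.26 in WT and -0.16 and 0.16 in KO and did not pass. *Tsr1* shares 32.3% of its exon bases with *Srr* on the opposite strand. *Bysl* shares 9.37% with *Ccnd3*, also on the opposite strand, which had 13565 counts over the 12 libraries against 6553 for *Bysl*. Whether the counting used strand is not given in the sources used here.

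Of the 60S assembly factors 15 of 17 rose in WT and 16 of 17 in KO, with medians of 1.48 and 1.31 on the log2 scale. *Bop1* (ENSMUSG00000022557, chr15:76452989-76477277), a subunit of the PeBoW complex needed for the large subunit RNA, had 44.7, 51.9, 59.3 and 69.5 CPM in the WT and 72.9, 51.4, 57.6 and 74.5 CPM in the KO quiescent libraries, and 308 and 327 CPM in the WT and 399 and 239 CPM in the KO activated libraries. The lowest activated library was at 3.21 times the highest quiescent library, and the level was 5.63-fold higher in WT (log2 fold change 2.49, standard error 0.26, adjusted p = 6.96e-07, edgeR) and 4.97-fold in KO (adjusted p = 1.31e-06). Its partners in PeBoW rose as well, *Pes1* by 1.48 and 1.63 and *Wdr12* by 1.78 and 1.53 on the log2 scale. A sequence in *Vmn1r88* nearly identical to *Wdr12* held 8.20% of their joint counts.

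*Rrs1* (ENSMUSG00000061024, chr1:9545408-9547455), which helps to place the 5S particle in the large subunit, had 88.5, 77.7, 185 and 211 CPM in the WT and 184, 112, 122 and 247 CPM in the KO quiescent libraries, and 339 and 380.1 CPM in the WT and 439 and 386 CPM in the KO activated libraries. No activated library overlapped a quiescent one, although the quiescent libraries ranged 3.18-fold, and the log2 fold changes were 1.36 in WT and 1.31 in KO (adjusted p = 0.00758 and 0.00848, edgeR). Without KO activated replicate 1 the KO value was 1.22 (adjusted p = 0.0599).

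The paralogs *Rrp1* and *Rrp1b* had different values. *Rrp1* (ENSMUSG00000061032, chr10:78400384-78413043) had 117, 119, 164 and 173 CPM in the WT and 126, 141, 140.0 and 197 CPM in the KO quiescent libraries, and 189 and 208 CPM in the WT and 233 and 223 CPM in the KO activated libraries. WT activated replicate 1 lay below KO quiescent replicate 4, and the log2 fold changes of 0.47 and 0.60 did not pass (adjusted p = 0.159 and 0.0700, edgeR). *Rrp1b* rose by 1.35 and 1.21, and the difference between the paralogs was not tested.

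Of the remaining 60S factors, *Nop16* (1.86 in WT and 1.78 in KO), the RNA methyltransferase gene *Nop2* (1.76 and 1.60) and *Ebna1bp2* (1.71 and 1.68) had large log2 fold changes. The helicase genes *Ddx18* and *Ddx56* rose by 1.73 and 1.20 in WT and by 1.45 and 1.16 in KO. *Grwd1*, *Noc3l*, *Noc2l*, *Wdr74* and *Mrto4* rose by between 1.16 (*Mrto4*) and 1.57 (*Grwd1*) in WT and by between 0.91 (*Wdr74*) and 1.41 (*Grwd1*) in KO. *Noc2l* shares 20.9% of its exon bases with *Samd11* on the opposite strand, and pseudogenes held 8.57% of the joint counts with *Ddx18*. *Nle1* had 0.64 in WT (adjusted p = 0.162, edgeR) and rose by 1.03 in KO (adjusted p = 0.0230).

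The factors that rose were spread over low and high abundance. Of the 24 with the lower mean CPM over the 12 libraries 15 rose in WT and 17 in KO, and of the 24 with the higher mean 16 and 15 rose. Median log2 fold changes were 1.27 and 1.20 for the lower and 1.16 and 1.04 for the higher 24.

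Another 80 genes of the pathway, listed by role and not by their values but with earlier results of these data known, gave similar counts after culture. In WT 52 rose and 2 fell, with a median log2 fold change of 1.16, and in KO 53 rose and 1 fell, with a median of 1.08. Of 13 further genes of the RNA polymerase I machinery 7 rose in each genotype, from *Cd3eap*, a polymerase subunit, at 3.00 in WT and 3.21 in KO, to *Znrd1*, another subunit, at -0.34 and -0.35, which did not pass. In snoRNP assembly 5 of 7 rose in WT and 4 in KO, with *Shq1*, the chaperone of dyskerin, highest in WT (2.49, and 1.39 in KO) and *Znhit3* lowest (0.26 and -0.31). Among 24 further SSU processome genes 19 rose in WT and 20 in KO. In WT the highest was *Nat10*, an RNA acetyltransferase, at 2.02 (1.98 in KO), and the lowest *Ngdn*, at 0.24 (-0.084 in KO), and neither was at the end of the range in KO, which ran from -0.61 to 2.19.

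Of 6 further late 40S factors 4 rose in WT and 3 in KO, with *Rrp7a* highest at 2.04 in WT and 1.85 in KO. *Dimt1*, a dimethyltransferase of the small subunit RNA, went the other way, with -1.22 in WT (standard error 0.45, adjusted p = 0.0475, edgeR) and -1.02 in KO (adjusted p = 0.0771). The second exception was *Sbds*, which releases the factor eIF6 from the new 60S subunit. Its log2 fold change was -1.10 in WT (standard error 0.34, adjusted p = 0.0189, edgeR) and -1.13 in KO (adjusted p = 0.0142). Of the 30 further 60S factors 17 rose in WT and 19 in KO, and the highest was the helicase gene *Ddx31*, at 2.66 in WT and 3.30 in KO.

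Before culture the 48 factors varied together from library to library. Their mean log2 CPM was 5.45, 5.40, 5.997 and 6.22 in WT quiescent replicates 1 to 4 and 6.08, 5.63, 5.73 and 6.41 in KO quiescent replicates 1 to 4, against 6.95 and 6.99 in the WT and 7.27 and 6.87 in the KO activated libraries. KO quiescent replicate 4 was the highest of the 8 quiescent libraries for 40 of the 48 factors, and WT quiescent replicates 2 and 1 were the lowest for 23 and 18. Of the 8, KO quiescent replicate 4 also had the fewest genes with at least 10 counts (19717). These orders, and the ratios that follow, were not counted over all genes, so they are not shown to be particular to the factors. The highest quiescent library was over 2 times the lowest for 31 factors, with a median ratio of 2.35. This ratio was largest for *Wdr43* (3.74) and smallest for *Polr1a* (1.36).

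Markers of other cells also differed between the quiescent libraries. The summed level of the 6 smooth muscle or pericyte markers was 2553, 2663, 1500.0 and 1719 CPM in WT replicates 1 to 4 and 1574, 1553, 2713 and 1513 CPM in KO replicates 1 to 4. The 3 libraries with the highest of these sums were among the 4 with the lowest mean of the biogenesis factors, and KO replicate 2 was low in both. The endothelial markers summed to 999, 1012, 427 and 495 CPM in WT replicates 1 to 4 and to 1019, 388, 1026 and 233 CPM in KO replicates 1 to 4, so that KO replicate 1, with the third highest mean of the factors, was among the highest here. The other lists gave other orders: fibroadipogenic progenitor markers were highest in KO replicates 3 and 4 (1470.2 and 1056 CPM), blood cell markers in KO replicate 4 (517 CPM) and mature fibre markers in KO replicate 2 (856 CPM). Depth was 17532019, 12775593, 23058947 and 22785815 counts in WT replicates 1 to 4 and 17238391, 13075208, 22897189 and 23717013 counts in KO replicates 1 to 4, and KO replicate 3, with a low mean of the factors, was among the deeper libraries. The part of these markers and of depth in the spread of the factors was not tested.

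**Figure D3:**
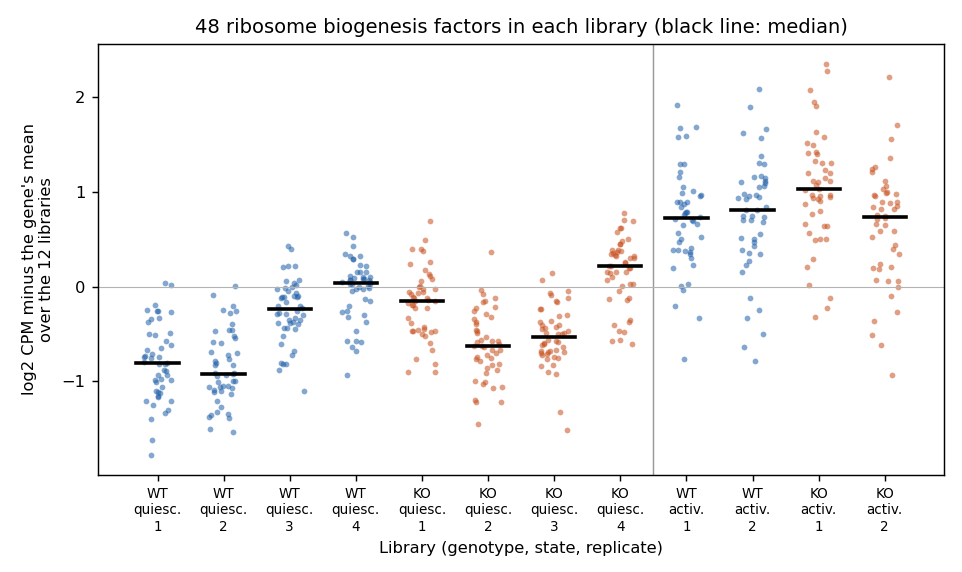
Log2 CPM of each of the 48 factors minus its own mean over the 12 libraries, for each library, with points for genes and a black line for the median. The medians ran from -0.92 in WT quiescent replicate 2 to 0.22 in KO quiescent replicate 4 and from 0.72 to 1.02 in the activated libraries.

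The paper reports that, right after the tamoxifen injections, CXCR4 protein on satellite cells was reduced less than *Cxcr4* mRNA. CXCR4 protein was not measured here, so an effect of full loss of the receptor was not tested. Between *Cxcr4* KO and WT libraries no change was detected in any of the 48 factors. In quiescent libraries none passed edgeR's test (4 of 25771 genes did, 0.0155%), none had an unadjusted p under 0.05 (448 genes did), and none passed with DESeq2. The median log2 fold change, KO against WT, was 0.17, with 45 of 48 values above 0, and the values lay between -0.084 for *Nop10* and 0.45 for *Wdr43*. Over all genes tested 13762 of 25771 values were above 0, with a median of 0.025. Standard errors of the 48 were 0.18 to 0.31. For 46 of 48 factors the 95% confidence interval excluded a change of 1 on the log2 scale in either direction, and over all 48 the bounds reached from -0.56 to 1.07. The 48 values share the same 8 libraries, and the median was -0.0014 without KO quiescent replicate 4 and 0.37 without WT quiescent replicate 4.

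*Dkc1* had a log2 fold change of 0.36 between quiescent KO and WT (95% confidence interval -0.045 to 0.76), with KO libraries at 35.7, 30.1, 30.3 and 38.2 CPM all above the WT libraries at 23.9, 24.6, 26.5 and 29.7 CPM. How many of all genes showed this order was not counted. *Wdr43* had 0.45 (-0.17 to 1.07) and *Polr1b* 0.24 (-0.33 to 0.81), both with overlapping libraries. For *Ncl* the value was 0.15 (-0.37 to 0.67) and for *Nop58* 0.21 (-0.20 to 0.61). The adjusted p was 1 for each of the 48 (edgeR).

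In activated libraries again none of the 48 passed (13 of 25771 genes did, 0.0504%), none had an unadjusted p under 0.05, where 2158 genes did, and none passed with DESeq2. The median was 0.10, with 37 of 48 values above 0. Over all genes tested 11422 of 25771 values were above 0 and 9690 below, with a median of 0. With 2 libraries a group the intervals were wide and only 38 of 48 excluded a change of 1 on the log2 scale, with bounds from -1.12 to 1.62. The largest value was that of *Nle1*, a 60S factor, at 73.2 and 80.5 CPM in KO and 45.1 and 45.1 CPM in WT libraries. Both KO libraries were above both WT libraries, an order that *Gar1* and *Pno1*, among others, also showed. It was not counted over all genes. The log2 fold change of *Nle1* was 0.77 (95% confidence interval -0.079 to 1.62, adjusted p = 0.642, edgeR). The lowest was *Nob1* at -0.33 (-1.12 to 0.46). Without KO activated replicate 1 the median of the 48 was -0.13.

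The change on culture did not differ detectably between genotypes. None of the 48 passed the test of the difference (edgeR; 0% of all genes, 0 of 25771), none had an unadjusted p under 0.05, where 1699 genes did, and with DESeq2 47 genes and none of the 48 passed. The median difference was -0.093 on the log2 scale, between -0.44 for *Nob1* and 0.40 for *Nle1*, with 33 values below 0. Over all genes tested 12625 of 25771 values were below 0, with a median of 0.017. The 95% confidence interval was -1.06 to 0.34 for *Dkc1*, -0.84 to 1.18 for *Pno1* and -0.56 to 0.87 for *Nop58*. It was -1.40 to 0.52 for *Nob1* and -0.63 to 1.42 for *Nle1*. Over all 48 the bounds reached from -1.44 (*Noc3l*) to 1.42 (*Nle1*). For most of the 48 the interval did not exclude a difference of 1 on the log2 scale. Of the other 80 pathway genes none passed between genotypes in either state, or in the difference between states (edgeR). An unadjusted p under 0.05 (edgeR) was reached by 2 of the 80 in quiescent and 2 in activated libraries, all higher in KO.

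**Figure D4:**
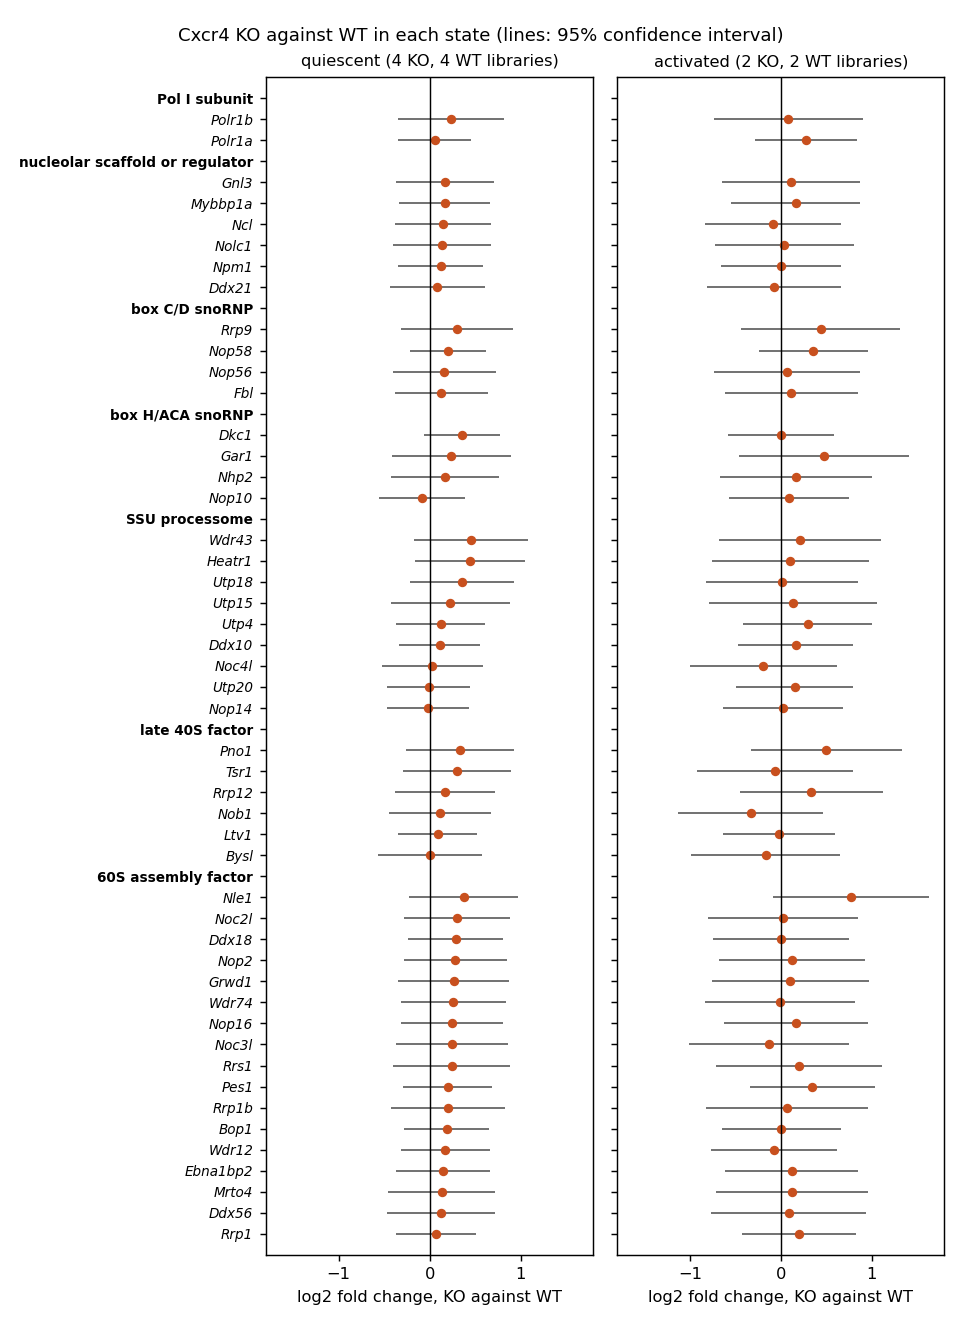
Log2 fold change of each factor in *Cxcr4* KO against WT in quiescent (left) and activated (right) libraries, with 95% confidence intervals as lines. Every interval includes 0, and the intervals are wider in the activated state, where 2 libraries were compared with 2.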

How the data were processed

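RNA-seq was performed on 12 libraries in 4 groups. The deposited counts are whole numbers of reads per gene, without normalization. Per the labels and the study's methods, the authors trimmed reads with Trim Galore 0.6.0, mapped with STAR 2.7.2a to GRCm38.p6 (mm10), counted reads per GENCODE gene in Rsubread and used DESeq2 1.34.0. The treatment of reads that map to several places and the use of strand are not given in the sources used here. A deposited table of FPKM, with a single value per group made by the authors, was not used here. No column of the count table was left unused (0 columns).

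Genes with too few counts were removed with filterByExpr, libraries were scaled by TMM, and all 12 libraries entered 1 model of group means in edgeR 4.0.16 (R 4.3.3). Contrasts were tested with the quasi-likelihood test and Benjamini-Hochberg adjustment over all genes tested, and a gene passed at an adjusted p under 0.05. The code was tested on simulated data. Log2 CPM used a prior count of 2, and confidence intervals cover 95%. Positions, exons and snoRNA genes came from GENCODE release 21 (the authors used release 25), and copies were found with blastn 2.17.0 at 95% identity over at least 300 bases.

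The members and all lists were chosen with earlier results of these data known. Values per library are given for the 2 members with the highest mean CPM and the member with the largest change in WT in each role, for members that fell, and for members that passed between genotypes. Of other pathway genes the highest and lowest in each list are named, and promoters are shown for at most 6 holders of CACGTG. Alternatives were DESeq2 1.42.0, other scalings, filters and thresholds, a robust fit, the compared groups alone, a prior count of 0.5, a replicate block and leaving out each library. Leaving out both second activated replicates was chosen after seeing the data.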

Additional observations from a re-analysis of the deposited data

Results flagged for a closer look

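Within each quiescent group of 4 libraries, 1 library was compared with the other 3 for each of the 48 factors and for their mean log2 CPM, 98 comparisons in all, and 3 stood apart. Chance sets about 1 in 20 such groups apart. *Nop10*, a box H/ACA protein gene, had 31.2 CPM in WT quiescent replicate 1, where the other WT quiescent libraries had 48.5 to 51.7 CPM. *Polr1a*, the largest subunit of RNA polymerase I, had 48.02 CPM in KO quiescent replicate 4, against 38.4 to 40.0 CPM in the other KO quiescent libraries. *Nop14*, of the SSU processome, had 78.1 CPM in KO quiescent replicate 4, against 53.8 to 56.3 CPM. KO quiescent replicate 4 was the highest quiescent library for 40 of the 48 factors, and this was not counted over all genes.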

How the results depend on the processing

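None of the 48 factors passed between genotypes in either state, or in the difference between states, under any alternative run. The count of factors that passed after culture (32 in WT and 33 in KO) stayed within 1.5 times of these values in both genotypes except on leaving out KO activated replicate 1 (28 to 38 in WT and 16 to 38 in KO over the 12 fits without 1 library), and of 782 values of the 17 factors with values per library, 735 kept direction and side of the threshold, 23 newly passed, 24 no longer passed and 0 changed direction past the threshold. The counts over all genes moved more. For KO against WT in activated libraries 13 genes passed, and 8 did with DESeq2's size factors, 4 with total counts, 334 without a filter, 2 with a mean count of at least 10, 20 with a robust fit, 150 with DESeq2, 3 with the compared groups only, 83 without both second activated replicates, and 0 to 211 on leaving out 1 library. For the difference between states 0 passed, and 3 did with total counts, 1 without CT010467.1, 170 without a filter, 8 with a robust fit, 47 with DESeq2, 48 without both second activated replicates, and 0 to 82 on leaving out 1 library. For KO against WT in quiescent libraries 4 passed, 50 without a filter and 3 to 7 on leaving out 1 library. For culture 7674 genes passed in WT and 8693 in KO, 4714 and 5652 without both second activated replicates, and 4524 to 8026 and 5066 to 8780 on leaving out 1 library. Total counts gave a mean log2 CPM of 6.82 for the factors in activated WT libraries, in place of 6.97. Without 1 library the other activated library of a group was assumed to vary like the other groups, and the cause of these changes was not tested.

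The labels do not say whether libraries of the same replicate number were handled together, and this was not tested. Deviations of same-numbered libraries from their group means had correlations of -0.050 to 0.30 over 14 pairs. The highest was that of WT and KO quiescent replicates 4, and 5 of 8 quiescent libraries correlated best with their own number. The main model held no replicate block. With the replicate number as a block, 39 factors rose in each genotype, the median in WT was 1.58, and 23 genes passed for KO against WT in activated libraries and 6 for the difference between states. Activated libraries had 3172164 to 5427280 counts and 2 libraries a group, and the part of depth in the wider intervals after culture was not tested.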
